A study of Homo sapiens with 8 samples.

Results

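Rapamycin was added to cells that were also given JQ1, and the 2 arrays of that combination were set against the 2 arrays of JQ1 without rapamycin, 4 of the 8 arrays in the series. The arrays were chosen by the treatment in their sample records, and arrays with the same replicate number in their titles were treated as a pair. All cells were MNNG/HOS, a chemically transformed subline of the human osteosarcoma line HOS. The combination group received 7.5 mM JQ1, in the unit the labels give, and 12.5 nM rapamycin. The group it was set against received 7.5 mM JQ1. The other 4 arrays, 2 with 12.5 nM rapamycin and 2 with DMSO, the control, show the same drug without JQ1. No treatment time is given in the labels. They are also silent on whether each array had its own culture, so the p-values describe array-to-array spread that could be technical. The probes carry Illumina identifiers, although the series' text names Affymetrix.

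JQ1 occupies the bromodomains of BET proteins such as BRD2 and BRD3, which hold transcription factors and elongation kinases at acetylated chromatin. Rapamycin binds the small protein FKBP12, encoded by FKBP1A, and the pair inhibits mTOR complex 1, a kinase that couples nutrients and growth factors to ribosome production, translation, lipid synthesis and cell growth. When the complex is active it also restrains autophagy, holds the lysosomal transcription factor TFEB in the cytoplasm, and dampens insulin receptor signalling upstream of itself, so its inhibition is known to release these.

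The deposited intensities had been normalized and floored at 20, a value that 55.73% to 58.59% of the probes held on each array, and array means ran from 455.5 to 481.6. Of the mesenchymal and osteosarcoma markers, 8 of 12 were above the floor on all 8 arrays while COL1A2 and THY1 lay at it throughout, and their summed intensity was 37436.1 to 42619.8 with both drugs and 40858.4 to 44233.3 with JQ1. PTPRC, CD3E, SPI1 and HBB, defining genes of blood cells, were at the floor on all 8 arrays, as were CDH1, KRT5, KRT14 and KRT19 of epithelia. In each of these 2 lists 3 genes were above the floor on all arrays. CD68 stood at 697.2 to 1695.5 and CD14 at 28.8 to 476.1, while LYZ was 21.6 at its lowest. Of the epithelial genes KRT8 stood at 836.6 to 1226.0, KRT18 at 215.8 to 422.4 and EPCAM at 146.8 to 224.9. The summed intensity of the blood list was 1252.9 to 2128.6 with both drugs and 1177.1 to 1918.1 with JQ1, and that of the epithelial list 1820.2 to 1901.3 with both drugs and 1764.9 to 1843.5 with JQ1. The part of either in the results was not tested. The brightest probe of RUNX2, a regulator of bone-forming cells, was at the floor on all 4 arrays with JQ1. A second RUNX2 probe read 35.3 and 20 with both drugs, against 39.3 and 37.0 with JQ1. A second, non-normalized table names its columns differently: each column matched a single array of the value table (rank correlation at least 0.997 over 14640 probes), and for 6 of the 8 columns, 3 of them arrays with JQ1, the name disagreed with the sample record. Every result below rests on the sample records. Arrays grouped by those records correlated at 0.971 to 0.9763 within a group. Arrays paired as the other table names them correlated at 0.9599 to 0.9673. HEXIM1, a gene known to respond to BET inhibitors, read 55.5 and 175.6 on the arrays recorded as JQ1, against 24.7 and 25.8 on those recorded as DMSO. The combination array and the JQ1 array of a pair correlated at 0.9748 in pair 1 and 0.9851 in pair 2, against 0.971 between both combination arrays and 0.9748 between both JQ1 arrays.

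Among 12759 genes, 2 rose with rapamycin on top of JQ1 and none fell at an adjusted p under 0.05. These were FBXO32, a ubiquitin ligase of muscle wasting and a classic FOXO target, and CREBRF, a regulator of the unfolded protein response. The called share was 0.0157% for higher and 0% for lower genes, by limma's moderated test with the replicate number as a block and Benjamini-Hochberg adjustment over all genes. At an unadjusted p under 0.05, 858 genes (6.72%) were higher and 1002 (7.85%) lower. The log2 difference had quartiles of -0.25 and 0.211, and 179 genes were more than 1 log2 unit higher and 121 more than 1 unit lower. Without the block no gene was called, the smallest adjusted p was 0.0997, and 1057 genes had an unadjusted p under 0.05. Both pairs agreed only in part: across genes, which are not independent replicates, the difference in pair 1 correlated with that in pair 2 at r = 0.331, and 54.2% of genes had the same sign in both.

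FBXO32 read 6052.6 and 8507.3 with both drugs, against 814.6 and 1682.6 with JQ1. Both combination arrays stood far above both JQ1 arrays. The rise was 6.13-fold (log2 2.62, SE 0.21, limma adjusted p = 0.0354, n = 2 each). A second probe of the gene gave a log2 difference of 2.13, and the third was at or near the floor on all arrays compared. Rapamycin without JQ1 gave 4356.8 and 8145.5, against 1217.4 and 2667.3 with DMSO, a log2 difference of 1.73.

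CREBRF read 87.7 and 102.3 with both drugs, against the floor of 20 on both JQ1 arrays. It was therefore at least 4.73-fold higher (fitted log2 2.24, SE 0.18, limma adjusted p = 0.0354). It was at the floor with DMSO too and read 116.2 and 99.2 with rapamycin, so that the arrays fell into those with rapamycin, all measurable, and those without, all at the floor. No spread between arrays was measured in the groups at the floor. A second probe gave 1.98. Both calls were lost without the replicate block, where the adjusted p was 0.373 for FBXO32 and 0.0997 for CREBRF, and when any 1 of the 8 arrays was left out.

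The start region of CREBRF is shown beside that of DNAJB9, the gene with the next smallest p, because each holds 2 copies of CACGTG, the core letters recognised by TFEB and related factors. These are RefSeq sequences of GRCh38.p14, from 250 bases before the gene's start to 50 after it, in the direction of the gene, with CACGTG in capitals. CREBRF lies on the plus strand at chr5:173056102-173056401 and DNAJB9 on the plus strand at chr7:108569624-108569923.
CREBRF: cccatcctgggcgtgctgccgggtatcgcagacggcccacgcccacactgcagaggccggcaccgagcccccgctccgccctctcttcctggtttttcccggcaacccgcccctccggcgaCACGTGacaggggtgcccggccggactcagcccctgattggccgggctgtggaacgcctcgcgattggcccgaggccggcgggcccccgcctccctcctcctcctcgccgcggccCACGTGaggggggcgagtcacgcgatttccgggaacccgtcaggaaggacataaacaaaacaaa
DNAJB9: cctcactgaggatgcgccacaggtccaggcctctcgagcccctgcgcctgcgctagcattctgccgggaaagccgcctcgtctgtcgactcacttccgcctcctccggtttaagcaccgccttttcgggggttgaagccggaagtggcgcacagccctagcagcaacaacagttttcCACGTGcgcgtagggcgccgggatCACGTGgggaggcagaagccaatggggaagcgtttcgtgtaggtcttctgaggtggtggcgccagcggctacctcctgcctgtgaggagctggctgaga
The motif reads the same on both strands. It was found in 2548 of 35116 such windows (7.26%), and at least 2 copies in 233 (0.664%). Of the 12 genes highest by the naming rule, 8 had a window, and CREBRF and DNAJB9 were the 2 that held it. Of the 12 lowest, 7 had a window, and IL17RB and PWP2 held it. The forkhead letters GTAAACA, searched on both strands, were in 1202 windows (3.42%), among them those of SPSB3 and MARK2. The letters TGATGNAA, read by ATF4 with its partners, were in 3.62% of windows and in none of these 15. A match is a description of the letters only.

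The next 10 genes higher with both drugs did not pass the test, with adjusted p from 0.065 to 0.118. Their arrays do not overlap those with JQ1 because the naming rule asked for that. DNAJB9, a cochaperone of the endoplasmic reticulum, read 1113.2 and 1220.0 with both drugs, against 335.8 and 372.6 with JQ1 (log2 1.72, SE 0.16, adjusted p = 0.065). Its differences were nearly equal in pair 1 (1.73) and pair 2 (1.71), which naming by smallest p favours. PIM1, a kinase that promotes survival and cap-dependent translation, read 798.7 and 401.5 with both drugs, against 111.9 and 108.3 with JQ1 (log2 2.36, SE 0.29, adjusted p = 0.112). UBALD2 read 809.2 and 822.9 with both drugs, against 194.9 and 268.1 with JQ1 (log2 1.84). KLF9, a transcription factor, read 544.2 and 582.0 with both drugs, against 190.2 and 216.0 with JQ1 (log2 1.47). PIM1 had the widest spread between its combination arrays, and in UBALD2 and KLF9 they were almost equal.

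KLHL24, a substrate adaptor of a ubiquitin ligase, read 387.7 and 516.0 with both drugs, against 60.0 and 155.5 with JQ1 (log2 2.21, adjusted p = 0.118). SCARNA13, a small RNA of Cajal bodies, read 2129.3 and 1849.1 with both drugs, against 766.2 and 499.4 with JQ1 (log2 1.68). A probe that the platform annotation assigns to MIR330 read 104.2 and 67.7 with both drugs and 20, the floor, with JQ1 on either array. That is at least 4.20-fold apart, with an adjusted p of 0.065. The name is the annotation's for the locus, and no level of the mature microRNA is reported. KDM7A, a histone demethylase, CATSPER1, a sperm calcium channel subunit, and SPSB3, a ubiquitin ligase adaptor, had log2 differences of 1.48, 1.69 and 1.39. KDM7A read 68.9 and 57.3 with both drugs, against 25.3 and 20, the floor, with JQ1. CATSPER1 read 144.3 and 229.0 with both drugs, against 35.9 and 87.9 with JQ1, while the DMSO arrays stood at 107.4 and 278.3.

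**Figure D1:**
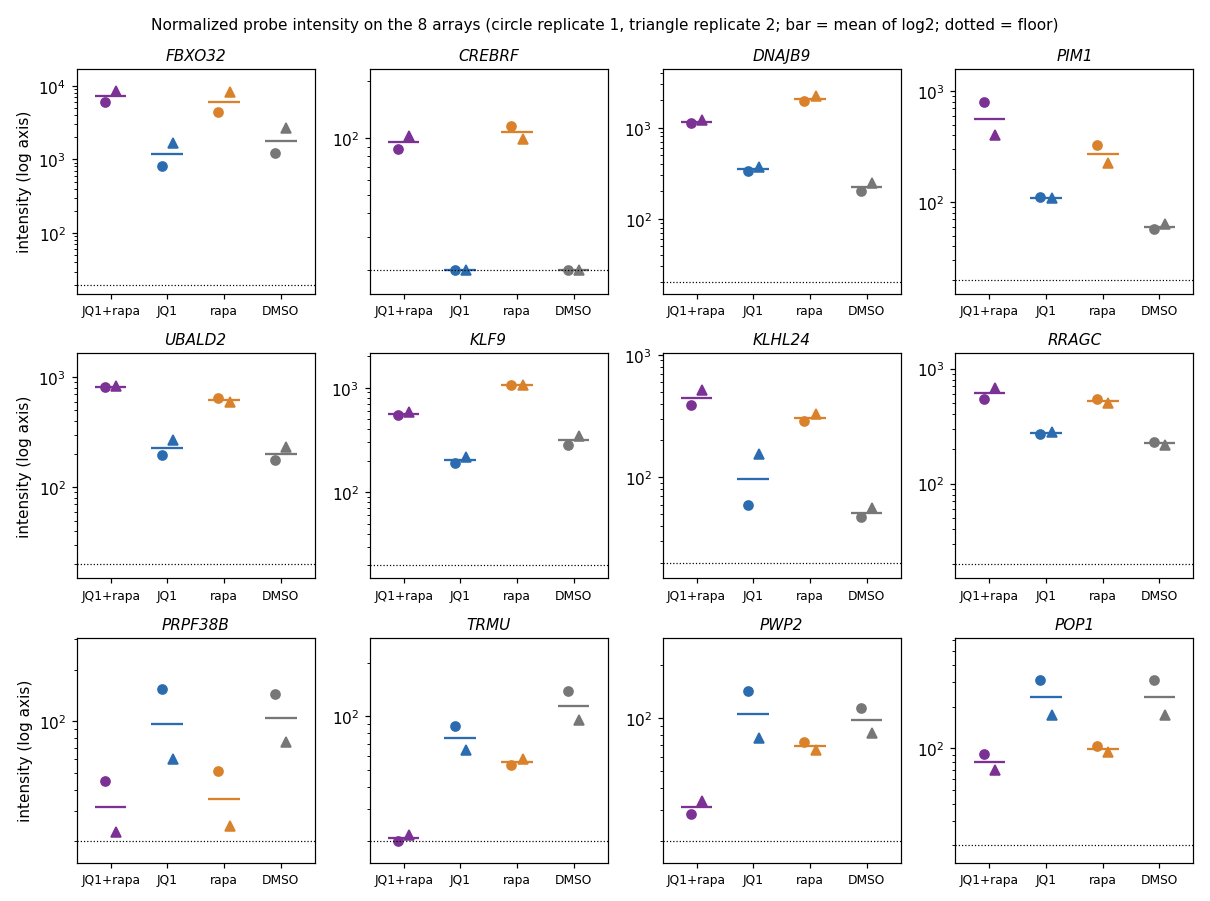
Normalized intensity (log axis) of 12 genes on each of the 8 arrays, with circles for replicate 1, triangles for replicate 2, a bar at the mean of log2 values and a dotted line at the floor of 20. CREBRF was 87.7 and 102.3 with both drugs and at the floor in all 4 arrays without rapamycin, while TRMU was 20 and 21.5 with both drugs and 88.4 and 64.5 with JQ1.

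Of the 12 genes lowest by the same rule none passed, and all had adjusted p between 0.102 and 0.122. PRPF38B, a splicing factor, read 44.8 and 22.6 with both drugs, against 153.4 and 60.1 with JQ1 (log2 -1.59, SE 0.18, adjusted p = 0.102). TRMU, which thiolates mitochondrial tRNAs, read 20 and 21.5 with both drugs, against 88.4 and 64.5 with JQ1 (log2 -1.86, adjusted p = 0.112). TRMU was at or near the floor with the combination, so that its difference may understate the distance. PRPF38B was above the floor on both combination arrays, though near it on array 2. The naming rule again asked for arrays that stand apart. POLR1B and RRS1 of the 12 are also in the list of nucleolar genes.

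POLR1B, the second largest subunit of RNA polymerase I, read 31.5 and 24.0 with both drugs, against 90.7 and 54.8 with JQ1 (log2 -1.36, SE 0.17, adjusted p = 0.113). A second POLR1B probe gave -0.70, with 27.7 and 24.0 with both drugs against 66.9 and 26.3 with JQ1. By that probe the arrays of pair 2 were close together. RRS1, a ribosome assembly factor, read 654.7 and 314.6 with both drugs, against 1409.5 and 788.3 with JQ1 (log2 -1.22). POP1, the scaffold of RNase P and RNase MRP, read 91.1 and 69.9 with both drugs, against 313.6 and 173.2 with JQ1 (log2 -1.55). PWP2, a component of the small subunit processome, read 28.5 and 33.8 with both drugs, against 143.9 and 77.1 with JQ1 (log2 -1.76). In all 4 genes array 1 of the JQ1 group was the higher of its group. The remaining members were RSPO2, a secreted WNT agonist (-1.21), EPS8, an actin regulator (-1.46), MARK2, a polarity kinase (-1.11), IL17RB, a cytokine receptor subunit (-1.42), FHIP2B (-1.13) and MPP2, a membrane scaffold (-1.09). RSPO2, EPS8, IL17RB and MPP2 each had 1 combination array at the floor and the other near it, so their differences may understate the distance. With JQ1 these genes were low too, at 44.6 to 72.2. A second RSPO2 probe was at the floor on every array. Other probes of MARK2 and FHIP2B gave -0.10 and 0.38, so these 2 genes depend on the probe as POLR1B does.

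A list of ATF4 targets and stress effectors, ATF4 being a factor translated preferentially when cells halt general protein synthesis, differed between the pairs. Of 18 measured members of a list of 20, 16 had a difference above 0, against 48.3% of all genes, and 1, CREBRF, was called. At an unadjusted p under 0.05, 6 were higher (33.3%, against 6.72% of all genes) and 1 lower. The median log2 difference was 1.18, against -0.00203 over all genes, but it was 1.83 in pair 1 and 0.0529 in pair 2. Some members were well above 0 in pair 2 as well, among them CREBRF (2.35), DDIT3 (1.91) and KLHL24 (1.73). DDIT3, the death-promoting factor CHOP, read 7055.3 and 781.9 with both drugs, against 175.0 and 207.8 with JQ1 (log2 3.62, SE 0.71, adjusted p = 0.144). Combination array 1 was far higher than array 2, yet both stood above both JQ1 arrays.

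ATF3, a stress-induced repressor, read 1273.3 and 200.6 with both drugs, against 71.9 and 145.5 with JQ1 (log2 2.30, SE 0.81, adjusted p = 0.263). SESN2, a leucine sensor that restrains mTOR complex 1, read 364.8 and 20 with both drugs and lay at the floor on both JQ1 arrays. Only 1 array thus measured it. TRIB3, a pseudokinase and ATF4 target named after its values were seen, read 1367.8 and 105.4 with both drugs, against 56.1 and 97.9 with JQ1. PPP1R15A, the phosphatase subunit that ends the response, was also named after its values were seen. It read 5051.7 and 3744.8 with both drugs, against 1530.6 and 1670.4 with JQ1 (log2 1.44, SE 0.21, adjusted p = 0.118). Its differences were 1.72 in pair 1 and 1.16 in pair 2. ATF4 itself read 23767.0 and 17123.9 with both drugs, against 12907.6 and 18618.1 with JQ1, and the groups overlapped. Another ATF4 probe gave 0.89, with 1826 and 1415 with both drugs against 606.3 and 1235 with JQ1, which did not overlap.

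**Figure D2:**
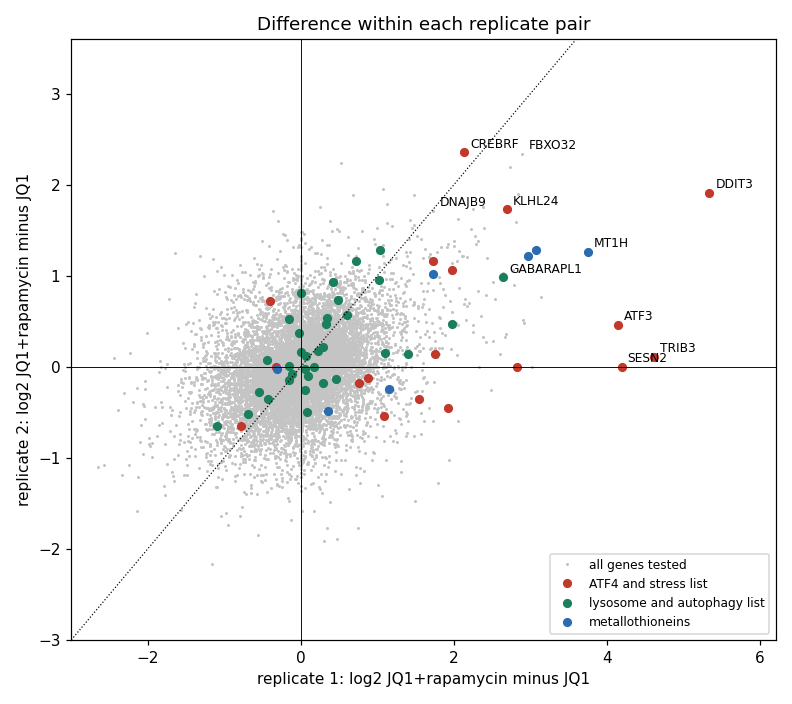
Log2 difference, JQ1+rapamycin minus JQ1, in replicate pair 1 (horizontal) and pair 2 (vertical) for the 12759 genes (grey), with the ATF4 and stress list, the lysosome and autophagy list and the metallothioneins coloured and a dotted line of equality. FBXO32, CREBRF and DNAJB9 lie near the line, a place that their smallest p favours. DDIT3, ATF3, TRIB3 and SESN2 lie far to the right, with pair 2 differences well under those of pair 1.

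The amino acid genes that ATF4 is known to drive were uneven in the same way. Of 20 measured synthesis and transport genes 2 were higher at an unadjusted p under 0.05, against 6.72% of all genes, and none was called, with list medians of 0.445 in pair 1 and -0.0557 in pair 2. ASNS, asparagine synthetase, read 8854.9 and 3406.4 with both drugs, against 2154.0 and 3116.3 with JQ1 (log2 1.08, SE 0.45, adjusted p = 0.337). SLC7A1, a transporter of basic amino acids, read 1531.7 and 965.9 with both drugs, against 813.3 and 756.9 with JQ1 (log2 0.63). Of 18 cytosolic aminoacyl tRNA synthetases, 12 lay below 0 (50.2% of all genes did). Of these 18, 1, MARS1, was lower at an unadjusted p under 0.05 (5.56%, against 7.85% of all genes). MARS1 read 717.7 and 430.3 with both drugs, against 1132.6 and 787.0 with JQ1 (log2 -0.76, adjusted p = 0.188).

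Genes of the unfolded protein response in the endoplasmic reticulum lay mostly above 0, with the larger differences in pair 1. Of 20 measured, 16 had a positive difference (48.3% of all genes did) and 5 were higher at an unadjusted p under 0.05 (6.72% of all genes), none of them called. The median was 0.161, with 0.309 in pair 1 and 0.0301 in pair 2. XBP1, the spliced transcription factor of the IRE1 branch, read 2201.8 and 1749.3 with both drugs, against 861.8 and 1243.1 with JQ1 (log2 0.92, SE 0.25, adjusted p = 0.195). FICD, which modifies the chaperone BiP, read 307.7 and 237.6 with both drugs, against 133.3 and 169.0 with JQ1 (log2 0.85). HSPA5, BiP itself, read 1335.0 and 1537.3 with both drugs, against 848.5 and 1274.5 with JQ1 (log2 0.46). The differences of XBP1, FICD and DNAJB9 were larger than that of HSPA5, an order that was not tested.

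Lysosome and autophagy genes, among them known TFEB targets, had similar medians in both pairs, although single members were uneven in either direction. MAP1LC3B differed by 1.40 in pair 1 and 0.14 in pair 2, ULK1 by 1.10 and 0.15, and FNIP1 by 0.42 and 0.93. These members were named after their values were seen. Of 34 measured, 11 were higher (32.4%) and 2 lower (5.88%) at an unadjusted p under 0.05, and none was called. The medians were 0.131 in pair 1 and 0.144 in pair 2, against 6.72% higher and 7.85% lower and a median of -0.00203 over all genes. RRAGC, a GTPase that anchors mTOR complex 1 at the lysosome, read 546.4 and 680.3 with both drugs, against 267.5 and 279.4 with JQ1 (log2 1.16, SE 0.18, adjusted p = 0.124). ATG14, the autophagy subunit of the VPS34 lipid kinase complex, read 651.6 and 574.8 with both drugs, against 322.6 and 297.6 with JQ1 (log2 0.98). NPC1, which exports cholesterol from the lysosome, read 429.4 and 561.3 with both drugs, against 261.7 and 250.9 with JQ1 (log2 0.94). The arrays of these 3 genes did not overlap between groups, with little spread inside each. They were named for the smallest p in the list, which favours both traits. Of the 34, 12 lay wholly above and 4 wholly below the JQ1 arrays, against 14.9% and 16.5% of all genes.

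HEXA, a lysosomal hydrolase, went the other way, with 21.4 and 26.9 with both drugs against 45.9 and 42.3 with JQ1 (log2 -0.88, SE 0.18, adjusted p = 0.146). GABARAPL1, an autophagosome protein and FOXO target named after its values were seen, read 246.9 and 215.6 with both drugs, against 39.5 and 109.2 with JQ1 (log2 1.81, adjusted p = 0.161). The letters CACGTG were in 9 of the 25 members that had a start window (36.0%), a list partly built on that motif in the literature. The window of RRAGC is printed as an example, from the minus strand of GRCh38.p14 at chr1:38859723-38860022, with its single copy in capitals.
RRAGC: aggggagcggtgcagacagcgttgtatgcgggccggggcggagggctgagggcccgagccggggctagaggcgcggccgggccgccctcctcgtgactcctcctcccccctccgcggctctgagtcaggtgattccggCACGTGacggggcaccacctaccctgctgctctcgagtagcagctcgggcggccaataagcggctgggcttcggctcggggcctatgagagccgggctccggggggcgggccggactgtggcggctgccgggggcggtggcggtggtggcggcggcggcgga

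Among genes around the insulin receptor, IRS2 was the member with the smallest p. It encodes a docking protein that links the receptor to PI3 kinase, and it read 406.5 and 266.8 with both drugs, against 93.9 and 114.5 with JQ1 (log2 1.67, SE 0.29, adjusted p = 0.140). FOXO3 and FOXO1, transcription factors that AKT keeps out of the nucleus, had differences of 0.65 and 0.63, and AKT1 one of -0.44. Of the 20 measured members, 3 were higher and 1 lower at an unadjusted p under 0.05, against 6.72% and 7.85% of all genes. TXNIP, an inhibitor of thioredoxin and glucose uptake, read 1527.5 and 8740.4 with both drugs, against 291.6 and 3033.2 with JQ1 (log2 1.96, SE 0.61, adjusted p = 0.233). Its arrays overlapped between groups, while within each pair the combination array was the higher.

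The drug targets that were measured differed by less than their standard errors. MTOR read 632.7 and 340.9 with both drugs, against 729.8 and 367.9 with JQ1 (log2 -0.16, SE 0.20), and FKBP1A 2115.7 and 2274.6 with both drugs, against 1856.3 and 2286.1 with JQ1 (log2 0.09, SE 0.19). The log2 difference was -0.12 for BRD2 and -0.23 for BRD3. RPTOR was at or near the floor on all 4 arrays. Of 28 mTOR pathway components, none was higher and 3 were lower at an unadjusted p under 0.05 (10.7%, against 7.85% of all genes). These were SESN1, MAPKAP1, a subunit of mTOR complex 2, and RPS6KB2, a ribosomal S6 kinase, with differences of -0.48, -0.46 and -0.44.

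Genes for building ribosomes lay below 0 in both pairs. Of 30 measured nucleolar and MYC target genes, 24 had a negative difference, against 50.2% of all genes, and 8 (26.7%, against 7.85%) were lower at an unadjusted p under 0.05. None was higher and none was called. The median was -0.276, with -0.324 in pair 1 and -0.263 in pair 2. Besides POLR1B and RRS1, the assembly factor NOP16 read 1264.4 and 748.0 with both drugs, against 2302.6 and 1251.9 with JQ1 (log2 -0.80, SE 0.17, adjusted p = 0.148). NOLC1, a chaperone of small nucleolar ribonucleoproteins, read 365.3 and 192.7 with both drugs, against 698.8 and 379.1 with JQ1 (log2 -0.96). In both genes the array with number 1 was the higher in either group, and the groups of NOP16 overlapped. A second NOP16 probe gave -0.29, with 1433 and 719.1 with both drugs against 1693 and 903.9 with JQ1.

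Of 68 measured cytosolic ribosomal protein genes, 48 had a positive difference (48.3% of all genes did), with a median of 0.0763. At an unadjusted p under 0.05, 7 (10.3%, against 6.72% of all genes) were higher. Of 36 translation initiation factors, 3 (8.33%, against 7.85%) were lower and none higher. They were EIF3B (-0.75), EIF4G1 (-0.44), the scaffold of the cap-binding complex, and EIF4H (-0.44). MYC, which drives ribosome genes, read 975.8 and 235.1 with both drugs, against 276.5 and 175.4 with JQ1, with overlapping arrays (log2 1.12, SE 0.46, adjusted p = 0.330).

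Genes of DNA replication were lower in most members and more so in pair 1. Of 43 measured genes of the G1/S transition, 34 had a negative difference (50.2% of all genes did). At an unadjusted p under 0.05, 10 (23.3%, against 7.85% of all genes) were lower, with none higher and none called. The medians were -0.374 in pair 1 and -0.153 in pair 2. UHRF1, which maintains DNA methylation, read 466.2 and 341.7 with both drugs, against 1793.3 and 608.8 with JQ1 (log2 -1.39, SE 0.26, adjusted p = 0.141). POLE2, a DNA polymerase epsilon subunit, read 254.6 and 161.9 with both drugs, against 701.0 and 318.4 with JQ1 (log2 -1.22). CDC25A, the phosphatase that activates CDK2, read 284.8 and 209.3 with both drugs, against 710.7 and 366.0 with JQ1 (log2 -1.06). Of the 43, 15 lay wholly below and 2 wholly above the JQ1 arrays, against 16.5% and 14.9% of all genes. The groups stood apart in all 3 named genes, which naming by smallest p favours, and JQ1 array 1 was the highest of the 4 arrays in each. The same held for CCNE1, cyclin E, with a difference of -0.95. A second, dimmer probe of CDC25A gave -0.59.

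Of 44 mitotic genes, 6 (13.6%) were lower and 1 (2.27%) higher at an unadjusted p under 0.05, against 7.85% and 6.72% of all genes. The list median was -0.341 in pair 1 and 0.0455 in pair 2, opposite in sign. GTSE1 read 146.3 and 178.5 with both drugs, against 408.9 and 338.6 with JQ1 (log2 -1.20), and CDC25C 404.0 and 662.9 with both drugs, against 286.8 and 333.8 with JQ1 (log2 0.74). Of the 44, 14 lay wholly below and 6 wholly above the JQ1 arrays, against 16.5% and 14.9% of all genes. CDKN1B, the inhibitor p27, read 493.0 and 507.3 with both drugs, against 314.4 and 315.8 with JQ1 (log2 0.67, SE 0.18, adjusted p = 0.188). CDKN1A, the inhibitor p21, read 13677.3 and 11900.6 with both drugs, against 10544.1 and 12224.8 with JQ1, and the arrays overlapped. The arrays of p27, named for its small p, stood apart and those of p21, a fixed name, did not. CCND1, cyclin D1, differed by -0.48, and RB1 and its relative RBL1 by -0.70 and -1.11.

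Immediate early genes were higher chiefly in pair 1. Of 24 measured, 7 (29.2%) were higher and none lower at an unadjusted p under 0.05, against 6.72% and 7.85% of all genes. The medians were 0.716 in pair 1 and -0.0106 in pair 2. MAFF, a small MAF protein, read 321.0 and 183.3 with both drugs, against 93.9 and 76.5 with JQ1 (log2 1.52, SE 0.22, adjusted p = 0.118). KLF6 read 6393.4 and 4966.7 with both drugs, against 2019.5 and 2627.7 with JQ1 (log2 1.29), and JUN 3977.0 and 2777.0 with both drugs, against 1140.4 and 1907.7 with JQ1 (log2 1.17). In all 3 genes the combination arrays lay above the JQ1 arrays, which naming by smallest p favours. Of the 24, 8 lay wholly above and 2 wholly below, against 14.9% and 16.5% of all genes.

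Feedback genes of the ERK pathway had list medians more even between pairs, although the members named here differed more in pair 1. Of 14 measured, 12 had a positive difference (48.3% of all genes did). At an unadjusted p under 0.05, 5 (35.7%, against 6.72% of all genes) were higher, and none was called. The medians were 0.301 in pair 1 and 0.417 in pair 2. DUSP5, a nuclear ERK phosphatase, read 3115.2 and 2678.5 with both drugs, against 1348.6 and 1853.4 with JQ1 (log2 0.87, SE 0.25, adjusted p = 0.204). ETV5, an ETS factor induced by ERK, read 1994.3 and 2251.2 with both drugs, against 1253.3 and 1620.2 with JQ1 (log2 0.57). DUSP6 and DUSP1 differed by 0.55 and 0.91. In pair 1 and pair 2 the differences were 1.21 and 0.53 for DUSP5 and 1.30 and 0.53 for DUSP1. They were 0.67 and 0.47 for ETV5 and 0.63 and 0.47 for DUSP6.

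Of 20 NF-kB targets, 3 were higher and 1 lower at an unadjusted p under 0.05, against 6.72% and 7.85% of all genes. PTGS2, cyclooxygenase 2, read 10548.2 and 10146.9 with both drugs, against 2558.1 and 4554.6 with JQ1 (log2 1.60, SE 0.30, adjusted p = 0.140). CXCL8, the chemokine interleukin 8, read 8032.1 and 4530.5 with both drugs, against 2073.5 and 2740.3 with JQ1 (log2 1.34). Both inflammatory genes were abundant in either group and did not overlap, which naming by smallest p favours. RELA, an NF-kB subunit, read 23.0 and 46.0 with both drugs, against 90.8 and 82.9 with JQ1 (log2 -1.42). Of 20 p53 targets, 6 were higher and 2 lower at an unadjusted p under 0.05, against the same shares of all genes, with TNFRSF10B, a death receptor, at 0.99, TP53INP1 at 0.85 and the nuclease AEN at -0.82.

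Metallothioneins, cysteine-rich metal buffers, had the highest list median, 1.37, with 4 of 7 measured members (57.1%, against 6.72% of all genes) higher at an unadjusted p under 0.05. MT1G read 17837.3 and 12455.0 with both drugs, against 2277.2 and 5367.9 with JQ1 (log2 2.09, SE 0.38, adjusted p = 0.140). MT1H read 2599.2 and 1997.3 with both drugs, against 193.3 and 834.3 with JQ1 (log2 2.50), and MT1M and MT1F differed by 2.18 and 1.37. These genes are near-identical copies, so a probe may read several of them and the 4 values are not independent.

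Several BET inhibitor response genes, mostly histone genes known to respond to JQ1, lay higher with rapamycin added. Of 13 measured, 6 (46.2%, against 6.72% of all genes) were higher at an unadjusted p under 0.05 and none lower or called. The medians were 1.07 in pair 1 and 0.203 in pair 2. H1-2, a linker histone, read 3157.9 and 1830.4 with both drugs, against 760.5 and 1331.2 with JQ1 (log2 1.26, SE 0.37, adjusted p = 0.209). H4C8 read 282.4 and 112.3 with both drugs, against 52.9 and 65.3 with JQ1 (log2 1.60). Histone genes are close copies and their probes may be shared. HEXIM1, the P-TEFb inhibitor, read 38.6 and 76.9 with both drugs, against 55.5 and 175.6 with JQ1, lower in each pair though the groups overlapped (log2 -0.86, SE 0.40, adjusted p = 0.392). CDK9, the kinase of P-TEFb, read 380.4 and 406.1 with both drugs, against 762.8 and 559.4 with JQ1 (log2 -0.73, adjusted p = 0.203).

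BMP and WNT targets had the lowest list median, -0.408, which was -0.796 in pair 1 and -0.128 in pair 2. Of 12 measured members 4 (33.3%, against 7.85% of all genes) were lower at an unadjusted p under 0.05. ID3, an inhibitor of basic helix-loop-helix factors, read 1486.1 and 1615.3 with both drugs, against 3359.9 and 3069.2 with JQ1 (log2 -1.05, SE 0.19, adjusted p = 0.140). AXIN2, the scaffold induced by WNT, read 45.4 and 81.6 with both drugs, against 119.2 and 131.1 with JQ1 (log2 -1.04). Both groups stood apart in each gene, which naming by smallest p favours, at a low level for AXIN2. ID1 and ZNRF3 differed by -0.73 and -0.80. Among 16 osteoblast genes 1, SPP1 (0.48), was higher and 1, COL1A1 (-0.60), lower at an unadjusted p under 0.05. Of all genes 6.72% were higher and 7.85% lower. MMP1, a collagenase, read 156.2 and 178.3 with both drugs, against 69.1 and 78.7 with JQ1 (log2 1.18, adjusted p = 0.141).

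Sterol and fatty acid genes were higher mainly in pair 1, with medians of 0.511 in pair 1 and 0.0192 in pair 2. At an unadjusted p under 0.05, 6 of 26 (23.1%, against 6.72% of all genes) were higher and 1 (3.85%, against 7.85%) lower. IDI1, an enzyme of isoprenoid synthesis, read 1443.7 and 1471.3 with both drugs, against 822.5 and 1041.7 with JQ1 (log2 0.65, SE 0.17, adjusted p = 0.188). INSIG1, the brake on sterol synthesis, read 11403.6 and 5750.3 with both drugs, against 2127.5 and 4782.2 with JQ1 (log2 1.34). Counts at an unadjusted p under 0.05 in further lists are set against 6.72% of all genes higher and 7.85% lower. Of 17 cytosolic heat shock genes 3 (17.6%) were lower and none higher, and of 15 D-type cyclins, CDKs and their inhibitors 2 (13.3%) were higher and 3 lower. Of the BCL2 family and of the NRF2 targets, 14 measured in each, 2 (14.3%) were higher and none lower. Of 43 respiratory chain genes 1 was lower, of 30 proteasome subunits 1 was higher and 2 lower, of 28 glycolysis and hypoxia genes 2 were higher and 2 lower, and of 17 nucleotide synthesis genes 1 was lower.

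**Figure D3:**
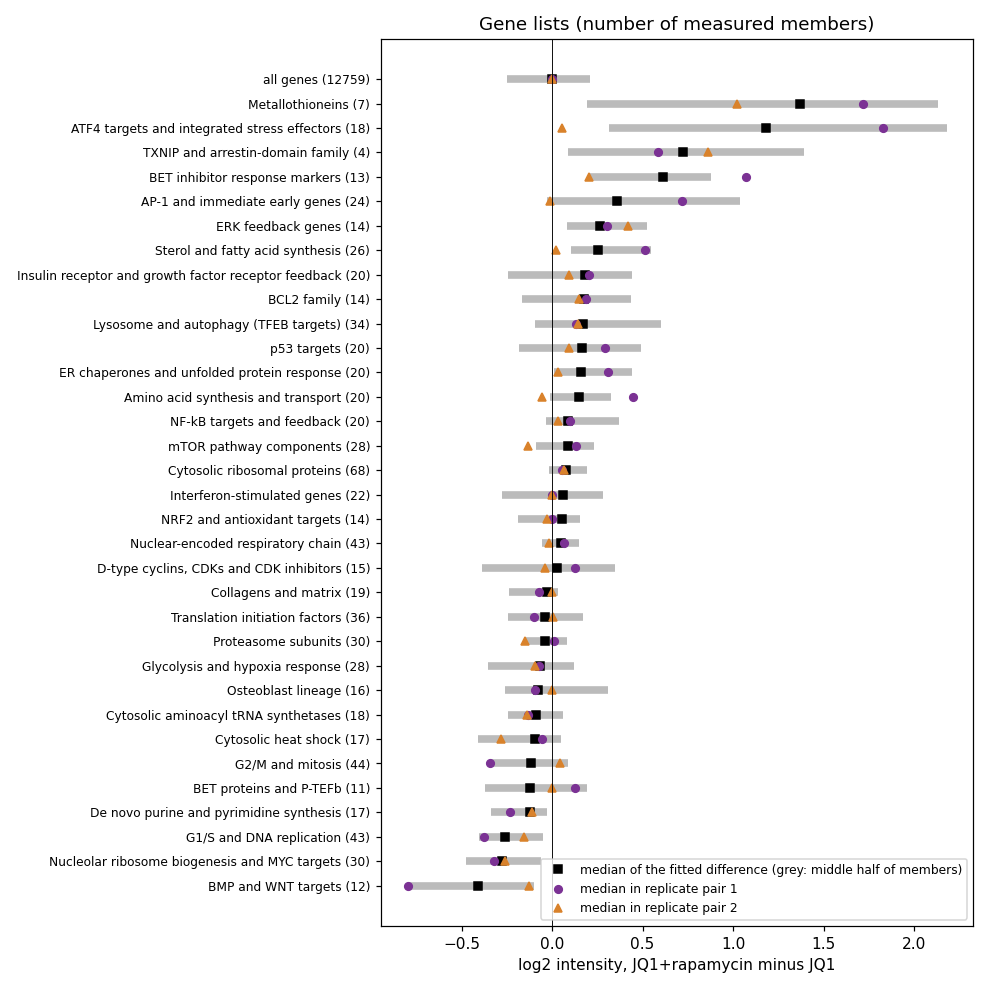
Median log2 difference, JQ1+rapamycin minus JQ1, over the measured members of 33 gene lists and over all genes: squares for the fit with the range between quartiles in grey, circles for replicate pair 1 and triangles for pair 2. The nucleolar list lies at -0.324 and -0.263 in the 2 pairs and the ERK feedback list at 0.301 and 0.417, whereas the ATF4 list lies at 1.83 and 0.0529.

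Rapamycin against DMSO gave 30 higher genes (0.235%) and 14 lower (0.11%) by the same fit. It compares other arrays, but the block and the spread were estimated from all 8. The fit without the block called 3 genes in place of 44, and leaving out any 1 of the 8 arrays gave none, so that the 44 depend on the fit. Across the 12759 genes the log2 difference with JQ1 correlated with that without it at Pearson's r = 0.492 and Spearman's rho = 0.415, as a description. Both genes called on top of JQ1, FBXO32 and CREBRF, were among the 30. Of these 30, 26 had the same direction with JQ1 (48.3% of all genes were above 0). Among them 22 had combination arrays wholly above the JQ1 arrays (14.9% of all genes did). At an unadjusted p under 0.05, 21 were higher (6.72% of all genes). Of the 14 lower genes, 12 had the same direction (50.2% of all genes were below 0) and 10 lay wholly below (16.5% of all genes did). At an unadjusted p under 0.05, 8 were lower (7.85% of all genes). The shared spread favours genes that vary little on the arrays with JQ1 too. The shares of all genes are therefore not a like background, and these counts are no independent test. The median difference of the 30 was 1.01 with JQ1 and 1.82 without it, and that of the 14 was -0.699 with JQ1 and -1.78 without it. The genes were chosen on the values without JQ1, so no reading is given to the smaller size with it.

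The test of the difference itself, the rapamycin effect with JQ1 minus that without, called 1 gene (0.00784%), KLHL14, and 930 had an unadjusted p under 0.05. KLHL14 lay at the floor of 20 on 6 arrays and read 250.0 and 195.5 on the DMSO arrays, so that it could not be measured in the 3 groups given a drug. Its difference of effects was 3.47 (adjusted p = 0.0372, and 0.0648 without the block), but its effect on top of JQ1 was not measurable, since both groups lay at the floor. The call therefore shows the level with DMSO and no measured difference of effects. DNAJB9 read 1949.3 and 2223.4 with rapamycin, against 203.1 and 245.7 with DMSO, a log2 difference of 3.22 beside the 1.72 with JQ1. The difference of effects was -1.50 (SE 0.23, unadjusted p = 0.000332, adjusted p = 0.386) and did not pass. GDF15, a stress cytokine, read 917.8 and 669.7 with rapamycin, against 37.6 and 84.4 with DMSO, and 161.5 and 106.9 with both drugs, against 41.2 and 51.2 with JQ1. Its difference of effects was -2.28 (SE 0.58, limma unadjusted p = 0.00572, adjusted p = 0.641) and did not pass either. GDF15 was named after its values were seen.

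Other differences of effects are given for some of the genes named above for their effect on top of JQ1 or as fixed names. Which of them appear here followed no rule. FBXO32 had a difference of effects of 0.89 (limma unadjusted p = 0.019, adjusted p = 0.646). That of MIR330 was 1.61 (limma unadjusted p = 0.000845, adjusted p = 0.431), and neither passed. POLR1B read 70.1 and 51.3 with rapamycin, against 63.6 and 44.1 with DMSO (log2 0.18), beside -1.36 on top of JQ1, and the difference of effects was -1.54 (unadjusted p = 0.000424, adjusted p = 0.386). RSPO2 read 30.2 and 30.3 with rapamycin and lay at the floor on both DMSO arrays, and its difference of effects was -1.81 (unadjusted p = 0.000165, adjusted p = 0.313). CDKN1A read 4019.1 and 3364.8 with rapamycin, against 1849.6 and 1738.2 with DMSO (log2 1.04), beside 0.17 on top of JQ1. Its difference of effects was -0.87 (limma unadjusted p = 0.0135, adjusted p = 0.641) and did not pass. For PIM1, UBALD2, KLHL24, PRPF38B and IRS2 the differences of effects ran from -0.36 to 0.21, with unadjusted p from 0.425 to 0.91, which does not show that the effects were equal. In 2 of the 30 higher genes, VLDLR-AS1 and RFX4, and in TRIB2 among the 14 lower, the sign with JQ1 was the opposite. These log2 differences on top of JQ1 were small, at -0.17, -0.31 and 0.29, with limma unadjusted p of 0.51, 0.104 and 0.148. No reversal is thus shown. VLDLR-AS1 and RFX4 lay at or near the floor on the arrays with JQ1. The pairs of VLDLR-AS1 differed in sign (0.24 and -0.59). Its arrays and those of TRIB2 overlapped between groups, while those of RFX4 did not.

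**Figure D4:**
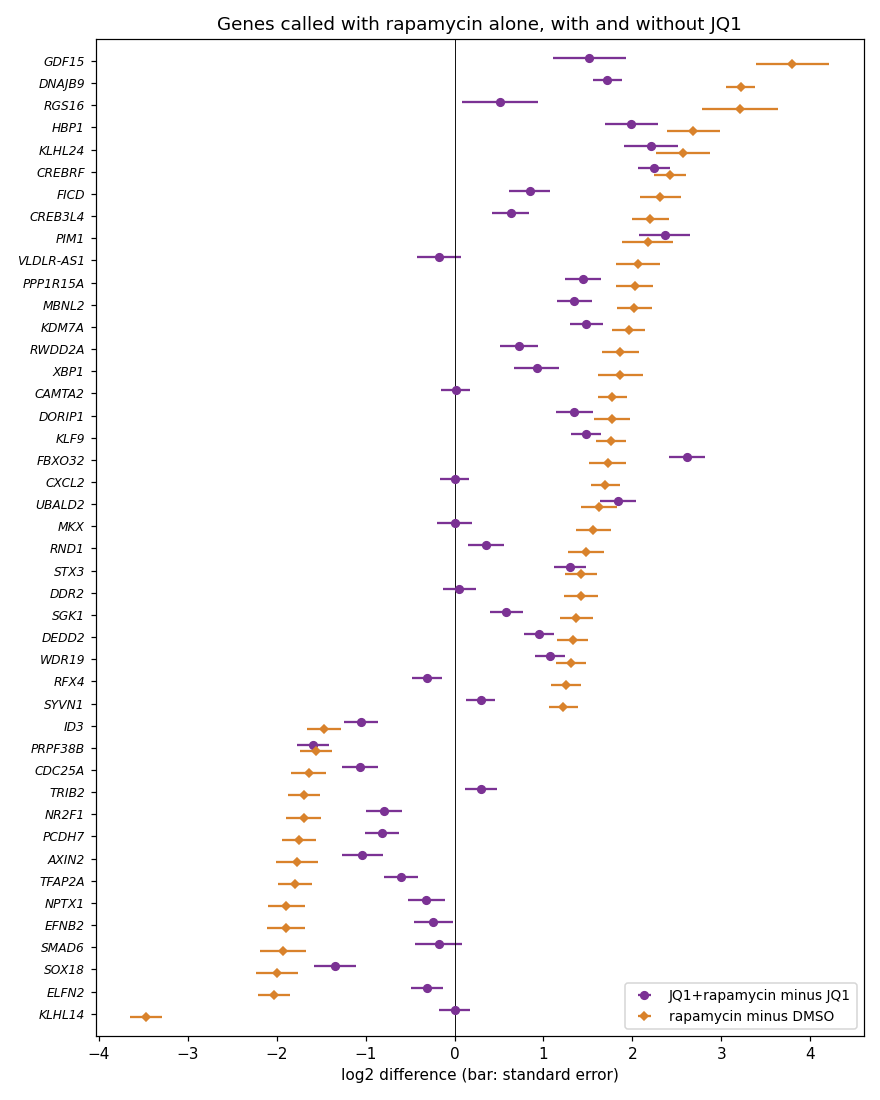
Log2 difference and its standard error for the 44 genes called with rapamycin against DMSO, with circles for JQ1+rapamycin minus JQ1 and diamonds for rapamycin minus DMSO. The 30 higher genes are at the top and the 14 lower at the bottom, with KLHL14 at 0 on top of JQ1 and at -3.47 without it.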

How the data were processed

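Both deposited tables hold linear probe intensity from Illumina bead arrays. The authors deposited a value table of normalized intensity with a floor of 20 and a non-normalized table in which 28.3% to 30.3% of values were below 0. The software and method of normalization were not given in the sources used here. Biotin-labelled cRNA was made from Trizol-extracted RNA, per the labels' protocols. The value table was used here on the log2 scale. The platform annotation gave 1 gene symbol to 30102 of the 47304 probes, several to 8 and none to 17194, and 30063 symbols were updated through gene identifiers to RefSeq (GRCh38.p14). Probes above 20 on at least 2 of 8 arrays were kept (23860, of which 17016 were named), and the brightest probe stood for each of 12759 genes.

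A linear model with a mean per group and the replicate number as a block was fitted to all 8 arrays with limma 3.58.1 in R 4.3.3 (3 residual degrees of freedom, 3.92 prior), with Benjamini-Hochberg adjustment over all genes and a threshold of 0.05. The replicate numbers come from the titles, and deviations of same-numbered arrays from their group means correlated at 0.423 to 0.549 over the 6 pairs of groups, over genes. The median standard error was 0.211. With 2 arrays per group, their number limits the precision. The test was also run on simulated data, and the outcome is not reported here. No column was left unassigned (0).

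Genes were named as the 12 highest and 12 lowest, called ones first and then by smallest p, with both pairs alike and arrays apart, the called members or else up to 4 members with the smallest p of each of 33 gene lists and 5 marker lists, and a short list of drug targets and known responders. The comparison, the lists and the fixed names were chosen with earlier results of these data known. Alternatives were the model without the block, the 4 arrays with JQ1 only, other filters, centring, quantile normalization, probe averaging, variance options, thresholds, the non-normalized table matched to the sample records by rank correlation, and leaving out each array.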

Additional observations from a re-analysis of the deposited data

Results flagged for a closer look

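For KLHL14, a substrate adaptor of a ubiquitin ligase, the test of the rapamycin effect with JQ1 minus that without it gave 3.47 on the log2 scale (limma adjusted p = 0.0372, n = 2 arrays in each of 4 groups). The gene lay at the floor of 20 on both arrays with both drugs, both with JQ1 and both with rapamycin, and read 250.0 and 195.5 with DMSO. The effect on top of JQ1 is therefore 0 by the floor and was not measured, so that no difference of effects is shown, and no spread between arrays was measured in the 3 groups at it. The call was lost without the replicate block (adjusted p = 0.0648).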

How the results depend on the processing

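Counts of called genes moved with most settings and are given as higher and lower with both drugs against JQ1, then rapamycin against DMSO, then the difference of effects. The reported counts were 2, 0, 44 and 1. They were 0, 0, 3 and 0 without the replicate block, with 512 higher and 545 lower at an unadjusted p under 0.05. With only the 4 arrays given JQ1 the first counts were 0 and 0, with 607 and 732 at an unadjusted p under 0.05. They were 8, 3, 4 and 3 with no filter on low values (0 of the 2 called genes shared), 23, 5, 288 and 0 for genes above the floor on all 8 arrays (1 shared), 4, 0, 83 and 1 with arrays centred on their medians, 5, 0, 93 and 1 with the mean of a gene's probes, 145, 104, 713 and 3 with trend and robust variance, 2, 0, 157 and 1 with array weights, and 25, 6, 532 and 1 for the non-normalized table with an offset of 50. Quantile normalization left all 4 counts as reported. At a threshold of 0.01 they were 0, 0, 2 and 0, and at 0.10 they were 4, 0, 438 and 1. Leaving out any 1 array gave 0 calls throughout (range 0 to 0), with 482 to 1010 higher and 647 to 1144 lower genes at an unadjusted p under 0.05. The array then alone in its group is assumed to vary like those of the other groups. The cause of these shifts was not tested. Among the named genes' log2 differences, 3320 of the values under alternatives kept direction and side of the threshold, 87 passed it, 24 lost it and 15 turned sign. The sign turned for FKBP1A (-0.1855) and KRT8 (-0.2647) in the non-normalized table and for KRT8 with quantile normalization (-0.05462). With 1 array left out at a time it also turned for 10 genes, none of them called, whose ranges were ARRDC2 -0.8082 to 0.0616, COL5A2 -0.753 to 0.07242, CLDN4 -1.295 to 0.263, CDKN1A -0.02951 to 0.3661, CD3D -0.006705 to 0.3636, MTOR -0.3278 to 0.01181, BRD3 -0.5347 to 0.07712, BRD2 -0.3065 to 0.05846, RPTOR -0.6267 to 0.3834 and KRT8 -0.04228 to 0.1006.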

Other observations

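Of the genes called with rapamycin against DMSO and not yet described, 4 are given here that had the same direction on top of JQ1. HBP1, a repressor that slows entry into S phase, read 377.2 and 400.6 with both drugs, against 79.6 and 120.4 with JQ1 (log2 1.99, SE 0.30, limma adjusted p = 0.118). MBNL2, a splicing regulator, read 451.7 and 511.7 with both drugs, against 167.5 and 213.6 with JQ1 (log2 1.35), and STX3, a membrane fusion protein, 256.5 and 226.1 with both drugs, against 98.5 and 97.1 with JQ1 (log2 1.30). SOX18, an endothelial transcription factor, read 44.8 and 26.9 with both drugs, against 86.5 and 89.5 with JQ1 (log2 -1.34). None of these 4 passed the test on top of JQ1, and they were named after their values were seen.

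A few genes went opposite ways with and without JQ1, by the smallest p of the difference of effects, and none of them passed after adjustment. CYTIP, a regulator of integrin adhesion, read 164.0 and 436.8 with both drugs, against 51.1 and 184.6 with JQ1, and 285.2 and 1109.5 with rapamycin, against 501.3 and 1645.8 with DMSO. Its log2 difference was 1.46 with JQ1 and -0.69 without it (difference of effects 2.15, adjusted p = 0.313). RIN2, an exchange factor for a RAB GTPase, read 48.2 and 86.9 with both drugs, against 22.3 and 44.5 with JQ1, and 225.4 and 373.2 with rapamycin, against 444.7 and 647.9 with DMSO. In both genes the direction was the same in each replicate pair, which naming by smallest p favours. The combination and JQ1 arrays of CYTIP overlapped between groups, while those of RIN2 did not.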
